A study of Mus musculus with 36 samples.

Results

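Brown adipocytes grown from clone 66 were compared with those grown from clone 48 at day 6 of differentiation, the last day sampled. The comparison used the 12 libraries labelled day 6 of 36 in the series, 6 of each clone, with *Rxra*WT and *Rxra*SA lines pooled and genotype kept as a term of the model. Both clones were lines of mouse brown pre-adipocytes in which *Rxra* had been disrupted with Cas9 (Rxra-/-). The receptor RXRα was then put back with a retrovirus, either in its wild-type form (*Rxra*WT lines) or with residue 22, a serine, changed to alanine (*Rxra*SA lines). Each clone and genotype was represented by 3 day 6 libraries, numbered 1 to 3. All cultures were differentiated with insulin and triiodothyronine, with dexamethasone, IBMX and indomethacin added during the first 2 days. Each side of the comparison is a single clone, with 1 transduced line for each genotype, and the deposited description calls the 3 replicates technical. All libraries of clone 48 belonged to library pool 1 and all of clone 66 to pool 2, so that differences between the clones and differences between the pools cannot be told apart. The p-values below measure the spread between libraries of these lines only.

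A brown adipocyte stores triglyceride in lipid droplets and, on adrenergic stimulation, releases fatty acids that its mitochondria burn to make heat. PPARγ, paired with RXRα, switches on the genes of lipid storage that brown and white adipocytes share, while factors such as EBF2 and PRDM16 add the brown program, which includes the uncoupling protein UCP1. Separate clones of pre-adipocytes can differ in any of these.

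In the day 6 libraries total counts lay between 15683839 and 18629952 in clone 48 and between 18490379 and 24198110 in clone 66, and 31705 genes had at least 1 count. Levels are given as CPM, a gene's counts per unit of library total, scaled by TMM unless stated otherwise. The share of counts on ribosomal RNA genes ranged from 0.166% to 5.90% in clone 48 (median 0.773%) and from 0.226% to 8.004% in clone 66 (median 4.09%). Mitochondrial ribosomal RNA genes are part of that share. With that share as a covariate 7580 genes were called, and without the 6 libraries in which it was over 2% 4046 genes were called, beside the 4125 given below. Same-numbered *Rxra*WT and *Rxra*SA libraries of a clone moved together (mean correlation 0.811 over 6 pairs and 9515 genes), so tests that count 6 libraries a clone treat paired libraries as separate. The clone difference at day 6 was therefore also tested after the 2 libraries of a pair were summed, which left 3 sums against 3. These are called the sums below. The interaction of clone and genotype and the change from day 0 to day 6 were not tested in the sums. The first axis of a multidimensional scaling plot, holding 53.2% of the variance, separated the clones, from -1.19 to -0.961 in clone 48 and from 0.964 to 1.19 in clone 66.

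Of 15700 genes tested, 4125 (26.3%) had an adjusted p under 0.05, by edgeR's quasi-likelihood test with Benjamini-Hochberg adjustment over all genes tested. Of these, 2047 (13.0%) were higher and 2078 (13.2%) lower in clone 66. At least a 2-fold difference was reached by 481 genes (3.06%) that were higher and 518 (3.30%) that were lower. In the sums 1282 of 17108 genes (7.49%) passed, 687 of them higher and 595 lower. Of the 995 genes of at least 2-fold that both fits tested, the sums called 762. The levels of 2504 genes (15.9%) did not overlap between the 6 libraries of one clone and the 6 of the other. The interaction of clone and genotype was called by edgeR for 0 genes, with 196 genes at an unadjusted p under 0.05. DESeq2 called 1 gene, and edgeR called 61 once the replicate number within each clone was a block. Of the 999 genes of at least 2-fold, 838 were tested within each genotype alone, and 656 of these (78.3%) differed by at least 2-fold in the *Rxra*WT lines and in the *Rxra*SA lines. Within both genotypes 460 (54.9%) were called. These genes were selected in the same libraries, so this agreement is partly built in and is not an independent check.

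*Rxra* itself (chr2:27676440-27762957, GRCm38) was measured at 194 to 337 CPM in clone 48 (median 258) and at 176 to 246 CPM in clone 66 (median 214). The clones overlapped, and the difference did not pass the test (log2 fold change -0.35 ± 0.14 SE, edgeR adjusted p = 0.0923). The counts do not separate the disrupted locus from the introduced copy. The related receptor gene *Rxrg* was low in both clones and lower in clone 66, at 0.378 to 0.699 CPM against 3.28 to 4.18 CPM in clone 48 (log2 fold change -2.88 ± 0.17, edgeR adjusted p = 2.63e-07).

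Both clones carried the adipocyte markers at day 6, and no marker of the list was at 0. The summed level of the 7 adipocyte markers was 12530 to 15750 CPM in clone 48 and 9788 to 12570 CPM in clone 66. The test called 2 of them, *Adipoq* and *Cfd*, both lower in clone 66, and the sums called 0. *Pparg*, the nuclear receptor that drives adipogenesis, was at 443 to 646 CPM in clone 48 and 350 to 519 CPM in clone 66 (log2 fold change -0.23 ± 0.13, edgeR adjusted p = 0.204). *Fabp4*, the fatty acid binding protein of adipocytes, had a median of 4041 CPM in clone 48 and 3019 CPM in clone 66, with overlapping libraries (edgeR adjusted p = 0.0730). *Plin1*, which coats the mature droplet, had a log2 difference of 0.04 ± 0.16 (edgeR adjusted p = 0.873), and *Lpl*, the lipase that takes up fatty acids from lipoproteins, of -0.16 ± 0.23 (edgeR adjusted p = 0.647). Markers of other cell types were low beside these in both clones, but not all were near 0. The 6 skeletal muscle markers together were at 6.72 to 11.5 CPM in clone 48 and at 5.67 to 8.91 CPM in clone 66. Those of bone and cartilage were at 3.00 to 9.87 CPM and at 2.93 to 7.55 CPM. The 6 endothelial markers together reached 1.03 CPM, and *Cdh5*, *Ptprc*, *Adgre1*, *Itgam*, *Myod1*, *Myf5*, *Epcam* and *Cdh1* had no count in any day 6 library. In such bulk samples a smaller share of mature cells and less RNA per cell cannot be told apart.

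The counts called in each gene list below are read beside the 13.0% of all genes higher and 13.2% lower. Among 19 adipogenic transcription factors and coregulators, 15 were tested, 2 were higher and 5 lower in clone 66, with a median log2 difference of -0.23 against 0.00 over all genes tested. The sums called 0 higher and 3 lower, which were *Ebf2*, *Rxrg* and *Esrra*. *Ebf2*, an early factor of the brown lineage (chr14:67233292-67430918), differed most. It was at 40.1, 49.8 and 61.0 CPM (lowest, median, highest) in clone 48 and at 0.761, 0.891 and 1.35 CPM in clone 66. No library of either clone came near the range of the other, and the fitted level was 51.0-fold lower in clone 66 (log2 fold change -5.67 ± 0.17, edgeR adjusted p = 6.70e-10, in the sums 2.71e-05). *Cebpa*, which acts with PPARγ in late adipogenesis, differed far less (-0.27 ± 0.07, edgeR adjusted p = 0.0162, in the sums 0.273). *Esrra*, a receptor of mitochondrial genes, was at 106 to 116 CPM against 73.3 to 82.7 CPM (-0.51 ± 0.06, edgeR adjusted p = 8.10e-05, in the sums 0.0403). *Klf15*, a glucocorticoid-induced factor, was higher in clone 66 (0.31 ± 0.08, edgeR adjusted p = 0.0159, in the sums 0.204).

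The brown thermogenic list split. Of its 20 genes 15 were tested, and 2 were higher and 7 lower in clone 66, with a median of -0.58. Without the members on chromosomes 12, 18 and X the median was -0.04, and 5 members were lower. The sums called 1 higher and 4 lower. *Ucp1*, the uncoupling protein, had 2 to 5 counts in every library of both clones and could not be tested, and *Dio2* and *Prdm16* also fell below the filter on low counts. The clones could not be compared in *Ucp1* at these levels. *Cox7a1*, the cytochrome c oxidase subunit of muscle and brown fat, was at 15.3, 21.8 and 26.03 CPM in clone 48 and at 3.98, 5.94 and 9.67 CPM in clone 66. Every library of clone 66 was below every library of clone 48 (-1.74 ± 0.21, edgeR adjusted p = 6.39e-05, in the sums 0.0114). *Cox8b*, the other such subunit, went the other way, with a median of 33.3 CPM in clone 48 and 45.8 CPM in clone 66 (0.42 ± 0.12, edgeR adjusted p = 0.0199, in the sums 0.111). 

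*Cidea*, a lipid droplet protein of brown fat on chromosome 18, was low in both clones, with 10 to 27 counts in clone 48 and 3 to 9 in clone 66 (-1.64 ± 0.28, edgeR adjusted p = 8.57e-04, in the sums 0.0193). *Elovl3*, a fatty acid elongase induced by cold, had 7 to 18 counts against 1 to 9 (-1.41 ± 0.37, edgeR adjusted p = 0.0135, in the sums 0.0908). *Ntrk3*, a neurotrophin receptor, was the member that the sums called higher, at 0.607 to 1.04 CPM in clone 48 and 4.20 to 6.48 CPM in clone 66 (2.71 ± 0.18, edgeR adjusted p = 5.49e-07, in the sums 3.12e-04). *Ppargc1a*, the coactivator of mitochondrial biogenesis, had a difference of -0.58 ± 0.21 that did not pass (edgeR adjusted p = 0.0596). Of 13 genes of heat production without UCP1, 6 were tested, and *Ckb*, the creatine kinase of the futile creatine cycle, was the only one the sums called (-0.87 ± 0.11, edgeR adjusted p = 1.05e-04, in the sums 0.0226). *Ckb* lies on chromosome 12, whose median is given below.

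Receptors through which noradrenaline starts lipolysis were among the genes that were lower. *Adrb3*, the β3 receptor of adipocytes, was at 61.9, 105 and 122 CPM in clone 48 and at 28.4, 54.4 and 66.8 CPM in clone 66. The ranges overlapped at their edges, and the call was lost in the sums (-0.95 ± 0.24, edgeR adjusted p = 0.0118, in the sums 0.126). *Adrb1*, the β1 receptor, was at 3.10 to 3.92 CPM in clone 48 and at 0.162 to 0.523 CPM in clone 66, 8.41-fold lower in the fit (-3.07 ± 0.19, edgeR adjusted p = 4.66e-07, in the sums 7.36e-04). Per kilobase of exon, *Adrb3* was above *Adrb1* in both clones, with medians of 31.7 and 0.986 CPM per kb in clone 48 and of 15.3 and 0.113 CPM per kb in clone 66.

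**Figure D1:**
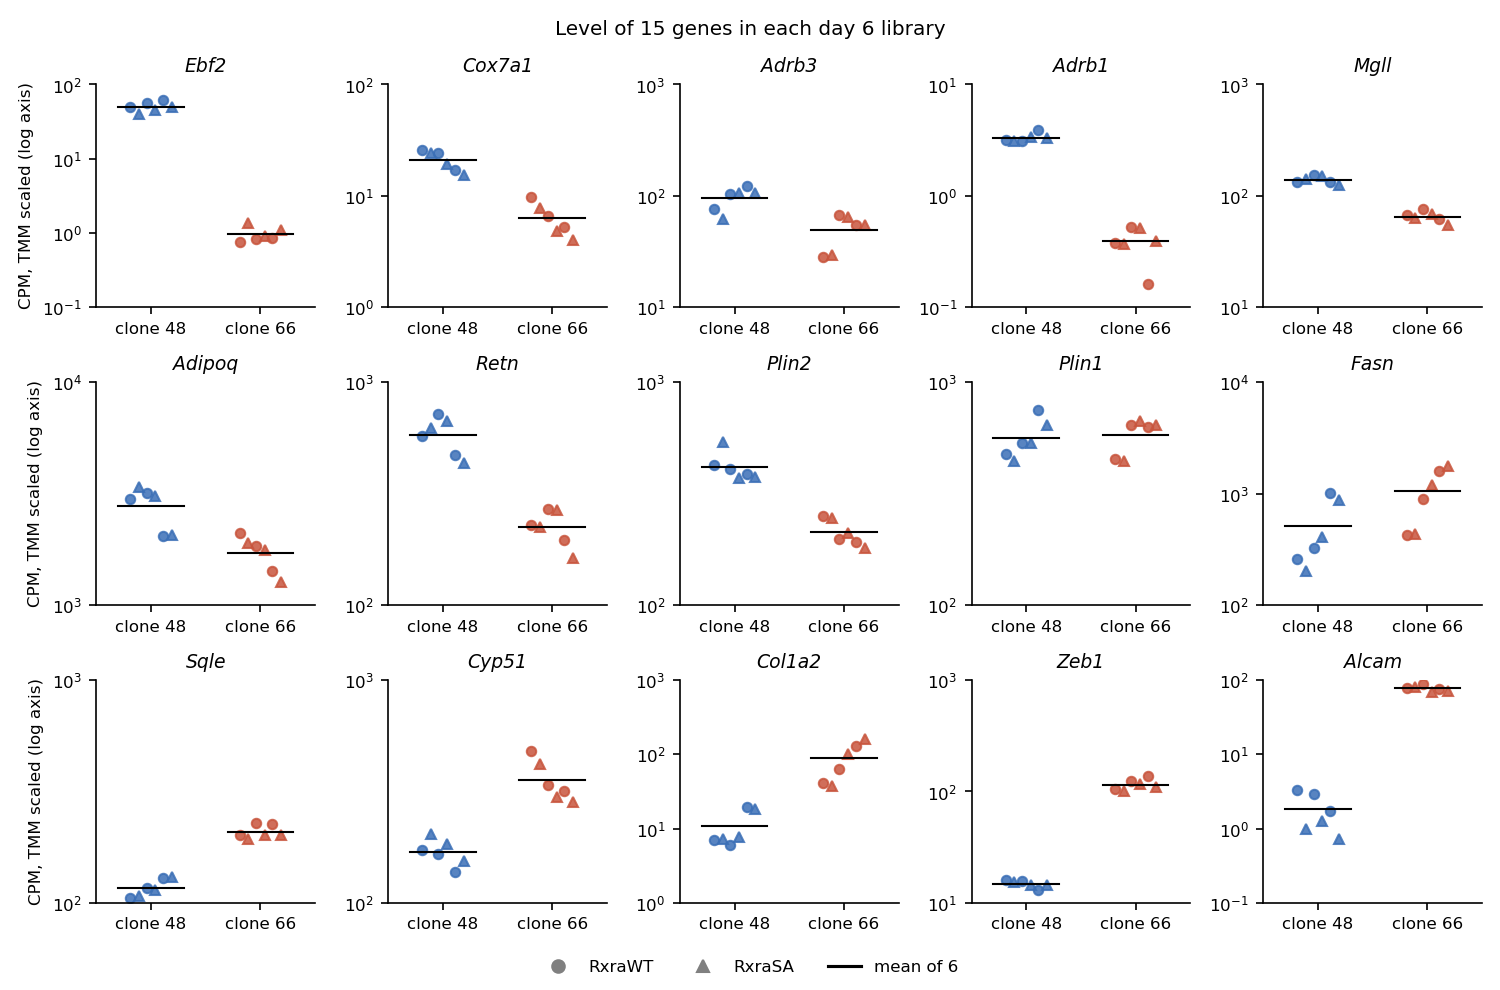
Level of 15 genes in each day 6 library in CPM scaled by TMM, on log axes that differ between panels. Each point is a library of clone 48 (blue) or clone 66 (red), circles are *Rxra*WT, triangles are *Rxra*SA, and the bar is the mean of 6; *Ebf2*, *Cox7a1*, *Retn*, *Plin2*, *Mgll*, *Sqle*, *Cyp51*, *Zeb1* and *Alcam* do not overlap between the clones, while *Plin1* and *Fasn* do.

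Lipolysis genes differed in both directions, with more of them lower than higher. Of 17 lipolysis and receptor genes, 16 were tested, 2 were higher and 8 lower (median -0.45), beside 13.0% and 13.2% of all genes. The sums called 2 higher and 3 lower. *Mgll*, the lipase of the last step of triglyceride breakdown, was at 126 to 153 CPM in clone 48 and at 55.1 to 76.7 CPM in clone 66 (-1.10 ± 0.09, edgeR adjusted p = 3.77e-06, in the sums 0.00487). *Pde3b*, which mediates the antilipolytic action of insulin, was low and lower still in clone 66 (-1.21 ± 0.31, edgeR adjusted p = 0.0122, in the sums 0.0355). The lipases of the earlier steps did not pass the test. *Pnpla2* (ATGL) varied within each clone from 52.2 to 372 CPM in clone 48 and from 62.1 to 372 CPM in clone 66, and *Lipe* (HSL) differed by -0.16 ± 0.18 (edgeR adjusted p = 0.565). *G0s2*, the inhibitor of ATGL, differed by 0.03 ± 0.14 (edgeR adjusted p = 0.908).

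Among 15 genes of the droplet coat and its biogenesis, 13 were tested, 1 was higher and 5 lower, and the sums called 1 and 2. *Plin2*, which coats small and growing droplets, was at 371, 397 and 542 CPM in clone 48 and at 180, 204 and 252 CPM in clone 66, with no overlap (-0.97 ± 0.12, edgeR adjusted p = 8.84e-05, in the sums 0.0158). *Pnpla3*, a droplet protein regulated by carbohydrate and insulin, was the member that was higher, at 20.9 to 30.7 CPM against 8.19 to 14.3 CPM (1.15 ± 0.15, edgeR adjusted p = 1.44e-04, in the sums 0.0179). *Cav1*, the caveolar coat protein, was lower in the 12 libraries and lost its call in the sums (-0.60 ± 0.13, edgeR adjusted p = 0.00421, in the sums 0.109).

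Triglyceride synthesis had 13 of 14 genes tested, 0 higher and 3 lower. *Gpam*, which performs the first acylation of glycerol phosphate, was at 613 to 730 CPM in clone 48 and at 378 to 427 CPM in clone 66 (-0.70 ± 0.07, edgeR adjusted p = 2.32e-05, in the sums 0.0171). *Agpat3*, which acts at the next acylation, was lower too (-0.70 ± 0.09, edgeR adjusted p = 1.47e-04, in the sums 0.0308). *Gk*, the glycerol kinase on the X chromosome, was lower in the 12 libraries and not called in the sums (-0.83 ± 0.17, edgeR adjusted p = 0.00303, in the sums 0.0693). *Dgat2*, the enzyme of the last step, had a difference of 0.32 ± 0.13 that did not pass (edgeR adjusted p = 0.0894). Of 14 genes of fatty acid uptake and binding, 11 were tested, 3 were higher and 4 lower, and the sums called none. *Cd36*, the fatty acid translocase, was at 542 to 953 CPM against 995 to 1458 CPM (0.64 ± 0.16, edgeR adjusted p = 0.0109, in the sums 0.135). *Fabp5* was higher by 0.56 ± 0.14 (edgeR adjusted p = 0.00990, in the sums 0.140). *Acsl1*, which activates fatty acids for storage, was lower (-0.39 ± 0.09, edgeR adjusted p = 0.00866, in the sums 0.192).

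Most genes of sterol synthesis were higher in clone 66. Of 22 genes of cholesterol synthesis and its control, 21 were tested, and 15 were higher in clone 66 and 0 lower, beside 13.0% of all genes that were higher. Their median log2 difference was 0.58, and the sums called 5 higher and 0 lower. The summed level of the list was 2243 to 2390 CPM in clone 48 and 3284 to 3944 CPM in clone 66. *Cyp51*, the lanosterol demethylase, was at 137, 169 and 205 CPM in clone 48 and at 284, 328 and 482 CPM in clone 66. All libraries of clone 66 were above all of clone 48 (1.07 ± 0.15, edgeR adjusted p = 1.88e-04, in the sums 0.0184). *Sqle*, the squalene epoxidase that is a rate-limiting step of the pathway, was at 105 to 131 CPM against 194 to 228 CPM (0.83 ± 0.08, edgeR adjusted p = 1.52e-05, in the sums 0.0103). *Fdps*, which makes farnesyl diphosphate, was higher by 1.04 ± 0.25 (edgeR adjusted p = 0.00870, in the sums 0.107). *Insig1*, which retains the sterol sensor in the endoplasmic reticulum, was higher by 0.75 ± 0.14 (edgeR adjusted p = 0.00221, in the sums 0.0649). *Stard4*, a sterol transfer protein on chromosome 18, was higher by 1.18 ± 0.23 (edgeR adjusted p = 0.00210, in the sums 0.0528). The median of the list was 0.31 at day 0 and 0.28 at day 2.

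De novo lipogenesis makes fatty acids from acetyl-CoA. Of 16 genes, 15 were tested, 4 were higher and 1 was lower (median 0.27), beside 26.3% of all genes that were called, and the sums called 2 higher and 0 lower. *Elovl6*, which elongates palmitate, was at 10.7 to 13.4 CPM against 18.1 to 21.5 CPM (0.76 ± 0.09, edgeR adjusted p = 7.68e-05, in the sums 0.0202). *Acss2*, which makes cytosolic acetyl-CoA, was at 140 to 166 CPM against 204 to 273 CPM (0.64 ± 0.09, edgeR adjusted p = 2.38e-04, in the sums 0.0336). *Scd1*, the stearoyl-CoA desaturase and the most abundant member, was at a median of 9504 CPM in clone 48 and 12160 CPM in clone 66 (0.36 ± 0.12, edgeR adjusted p = 0.0476, in the sums 0.318). *Fasn*, the fatty acid synthase, ranged from 200 to 1006 CPM in clone 48 and from 428 to 1774 CPM in clone 66. Its libraries spread more within a clone than between the clones, and the difference did not pass (1.04 ± 0.48, edgeR adjusted p = 0.134). With the share of ribosomal RNA as a covariate, *Fasn* passed (edgeR adjusted p = 2.02e-04), and 10 members of the list were higher and 3 lower.

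As most genes of sterol synthesis differed in 1 direction, the 250 bases upstream of their start sites were read from RefSeq promoters of build GRCm38.p6, which covered 14 of the 22 genes. The CCAAT box, the binding sequence of NF-Y, or its reverse complement ATTGG, was present in 14 of 14 of these windows, 9 of genes called and 5 of genes not called. It was present in 40.5% of the windows of 10324 genes tested and in 37.5% of all 27025. The core of the sterol regulatory element, searched as TCACNCCAC or its reverse complement, was present in 1 of the 14 windows, against 1.33% of genes tested. That window belonged to a gene not called, and 0 of the 9 windows of genes called held it. The motifs were chosen after the list was known to be higher, and a match is a description of the sequence and not of a bound site. Shown are the 4 covered members with the largest differences, with CCAAT or ATTGG in capitals. *Mvd* (mevalonate diphosphate decarboxylase, 0.72 ± 0.10, edgeR adjusted p = 1.48e-04) and *Hsd17b7* (a 3-ketosterol reductase, 0.66 ± 0.09, edgeR adjusted p = 2.83e-04) are named for this reason only. The windows are chr5:4104698-4104947 for *Cyp51*, chr8:122443423-122443672 for *Mvd* and chr1:169969206-169969455 for *Hsd17b7*, all on the minus strand, and chr5:28071162-28071411 on the plus strand for *Insig1*.
Cyp51: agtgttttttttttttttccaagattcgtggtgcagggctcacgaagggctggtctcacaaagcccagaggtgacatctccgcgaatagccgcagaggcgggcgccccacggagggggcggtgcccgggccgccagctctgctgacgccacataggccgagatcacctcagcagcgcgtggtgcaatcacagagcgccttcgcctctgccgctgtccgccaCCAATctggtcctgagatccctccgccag
Insig1: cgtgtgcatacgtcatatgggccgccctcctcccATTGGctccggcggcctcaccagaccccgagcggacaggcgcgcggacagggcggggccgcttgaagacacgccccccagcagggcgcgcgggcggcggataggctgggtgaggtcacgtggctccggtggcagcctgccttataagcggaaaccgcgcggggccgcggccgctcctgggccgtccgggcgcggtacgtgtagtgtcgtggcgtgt
Mvd: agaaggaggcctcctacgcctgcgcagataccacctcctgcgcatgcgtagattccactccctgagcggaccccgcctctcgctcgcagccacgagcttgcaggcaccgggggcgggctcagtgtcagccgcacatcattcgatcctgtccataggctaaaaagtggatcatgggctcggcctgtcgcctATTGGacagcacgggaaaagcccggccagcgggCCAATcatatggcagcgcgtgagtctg
Hsd17b7: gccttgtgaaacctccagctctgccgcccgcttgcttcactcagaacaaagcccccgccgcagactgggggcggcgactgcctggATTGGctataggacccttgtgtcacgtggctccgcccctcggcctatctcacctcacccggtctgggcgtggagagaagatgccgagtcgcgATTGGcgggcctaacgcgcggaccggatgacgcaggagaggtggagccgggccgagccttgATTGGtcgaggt
The window of *Hsd17b7* held ATTGG 3 times, that of *Mvd* held CCAAT and ATTGG once each, and those of *Cyp51* and *Insig1* held 1 match each.

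The counts of respiratory chain genes called are read against the 26.3% of all genes called. Of 36 nuclear complex I genes tested, 2 were higher and 3 lower, and of 44 genes of complexes II to V, 2 were higher and 9 lower (median -0.17), a share close to that of all genes. Without the members on chromosomes 12, 18 and X, 1 was higher and 1 lower in the first group, and 1 and 7 in the second. The sums called 0 in the first group and 1 in the second, *Cox7a1*. *Atp5b*, the catalytic subunit of ATP synthase, was at 3450 to 4266 CPM in clone 48 and at 2113 to 2835 CPM in clone 66, and its adjusted p in the sums was just above the threshold (-0.69 ± 0.11, edgeR adjusted p = 3.96e-04, in the sums 0.0530). Of 13 mitochondrially encoded protein genes 8 were tested, 2 were higher and 0 lower (median 0.37), and the sums called none. The other 5 (*mt-Co2*, *mt-Co3*, *mt-Atp6*, *mt-Atp8* and *mt-Nd4l*) had at most 2 counts in any day 6 library, while *mt-Co1* had at least 158479. The reason was not tested, and it limits what these counts say of mitochondrially encoded levels. The share of counts on mitochondrial genes ranged from 1.96% to 6.71% in clone 48 and from 2.35% to 9.09% in clone 66. It includes mitochondrial ribosomal RNA and so overlaps with the ribosomal RNA share given above. In the library with 9.09% (clone 66, *Rxra*SA replicate 3), *mt-Rnr2*, a ribosomal RNA gene, alone held 6.07% of counts. The share is therefore not a measure of the respiratory chain genes. In the citrate cycle 2 of 17 genes were higher and 4 lower, or 2 and 2 without the members on chromosomes 12, 18 and X. They included *Cs*, citrate synthase, with medians of 968 and 696 CPM (-0.55 ± 0.14, edgeR adjusted p = 0.0136, in the sums 0.157). *Sucla2*, a subunit of succinyl-CoA ligase, was lower (-0.69 ± 0.13, edgeR adjusted p = 0.00209, in the sums 0.0703). Mitochondrial fatty acid oxidation had 2 of 20 genes higher and 1 lower, and the sums called none.

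In peroxisomes 16 of 18 genes were tested, 4 were higher and 2 lower. A pair of genes moved far and in opposite directions. *Abcd2*, a transporter of very long chain acyl-CoA, was at 1.5 to 2.51 CPM in clone 48 and at 10.04 to 18.4 CPM in clone 66 (2.71 ± 0.17, edgeR adjusted p = 5.14e-07, in the sums 9.16e-04). *Acaa1b*, a peroxisomal thiolase, was at 24.3 CPM or more in clone 48 and at 6.03 to 9.98 CPM in clone 66 (-1.86 ± 0.13, edgeR adjusted p = 1.29e-06, in the sums 0.00209). *Acaa1b* has a close paralog, *Acaa1a*, so its counts are uncertain to that extent.

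Insulin signalling and glucose uptake had 17 of 18 genes tested, with 2 higher and 5 lower. *Slc2a4*, the insulin-responsive glucose transporter, was at 169 to 211 CPM in clone 48 and at 191 to 227 CPM in clone 66 (0.15 ± 0.08, edgeR adjusted p = 0.186). *Irs3*, an insulin receptor substrate of rodent adipocytes, was the member the sums called, at 2.20 to 3.11 CPM against 0.272 to 0.765 CPM (-2.29 ± 0.19, edgeR adjusted p = 3.50e-06, in the sums 0.00188). Of 16 glycolytic genes 2 were higher and 0 lower, and the sums called *Pfkp*, the platelet type phosphofructokinase, at 108 to 144 CPM against 227 to 284 CPM (0.99 ± 0.09, edgeR adjusted p = 6.55e-06, in the sums 0.00587). Of 16 genes of branched-chain amino acid breakdown 3 were higher and 3 lower, and the sums called 0 and 1.

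Secreted products of the adipocyte moved in both directions, with 5 of 18 adipokine genes higher and 7 lower (median 0.03). *Adipoq*, which encodes adiponectin, was at 2032, 3034 and 3388 CPM in clone 48 and at 1271, 1802 and 2109 CPM in clone 66. The highest library of clone 66 was above the lowest of clone 48, and the sums lost the call (-0.70 ± 0.17, edgeR adjusted p = 0.00860, in the sums 0.130). *Retn*, which encodes resistin, differed more, at 436, 599 and 720 CPM against 163, 226 and 270 CPM with no overlap (-1.37 ± 0.16, edgeR adjusted p = 5.00e-05, in the sums 0.0106). *Lep*, the leptin gene, was low in both clones and 2.02-fold lower in clone 66 in the fit (-1.01 ± 0.15, edgeR adjusted p = 3.04e-04, in the sums 0.0240). *Cfd*, the adipsin gene, was at 1197 to 1778 CPM against 694 to 1044 CPM (-0.81 ± 0.15, edgeR adjusted p = 0.00147, in the sums 0.0625). 

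The genes that were higher encode other signals. *Fgf21*, a hormone that thermogenic fat can release, had 2 to 7 counts in clone 48 and 22 to 43 in clone 66 (2.52 ± 0.29, edgeR adjusted p = 4.54e-05, in the sums 0.00171). *Rarres2*, which encodes chemerin, was at 79.1 to 139 CPM against 148 to 280 CPM (0.89 ± 0.18, edgeR adjusted p = 0.00332, in the sums 0.0688). Of 10 genes associated with white rather than brown adipocytes 7 were tested, 1 was higher and 3 lower. *Retn* and *Lep* are members of that list too.

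Matrix and progenitor genes held some of the widest differences. Of 18 genes of the fibrillar and interstitial matrix, 4 were higher and 2 lower, and all 6 were called by the sums. *Col1a2*, a chain of type I collagen, was at 6.04, 7.39 and 19.5 CPM in clone 48 and at 37.2, 82.7 and 162 CPM in clone 66. The spread within each clone was wide, yet the ranges did not overlap (3.01 ± 0.45, edgeR adjusted p = 3.74e-04, in the sums 0.0212). *Lum* and *Dcn*, small proteoglycans that bind collagen, had at most 2 counts in any library of clone 48. With a floor of 3 counts per library they were at least 11.2-fold and at least 4.42-fold higher in clone 66. *Postn* (-1.05 ± 0.17, edgeR adjusted p = 4.99e-04, in the sums 0.0264) and *Ogn* (-1.32 ± 0.14, edgeR adjusted p = 3.32e-05, in the sums 0.00901), also matrix proteins, were lower. Basement membrane genes had 2 of 14 higher and 0 lower, and the sums called none.

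Of 20 pre-adipocyte and progenitor genes, 13 were tested, 2 were higher and 6 lower (median -0.59), and the sums called 0 and 4. *Ly6a*, which encodes the stem cell antigen Sca1, was at 1.69 to 3.72 CPM in clone 48 and at 0.314 to 0.869 CPM in clone 66 (-2.55 ± 0.25, edgeR adjusted p = 1.39e-05, in the sums 0.00233). *Cd34* had 7 to 17 counts against 0 to 6 (-2.32 ± 0.48, edgeR adjusted p = 0.00336, in the sums 0.0179). *Sfrp2*, a modulator of Wnt signalling (-2.20 ± 0.30, edgeR adjusted p = 1.91e-04, in the sums 0.0165), and *Cd24a* (-1.39 ± 0.23, edgeR adjusted p = 7.11e-04, in the sums 0.0308) were lower as well. *Pdgfrb*, the receptor of mural and progenitor cells on chromosome 18, was the opposite case, at 19.1 to 74.3 CPM against 49.1 to 146 CPM with overlap (1.40 ± 0.42, edgeR adjusted p = 0.0257, in the sums 0.168).

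Hox genes, which keep a record of body position, had 26 of 39 members tested, of which 0 were higher and 3 lower, beside 26.3% of all genes that were called. *Hoxa9* was at 9 to 13.8 CPM in clone 48 and at 1.83 to 4.01 CPM in clone 66 (-2.11 ± 0.18, edgeR adjusted p = 5.63e-06, in the sums 0.00171), and *Hoxb13* had 22 to 48 counts against 4 to 12 (-2.44 ± 0.25, edgeR adjusted p = 1.85e-05, in the sums 0.00353). Both genes had at most 3 counts in every day 0 library. Strand was not used in counting, and *Hoxa9* shares exons with *Mir196b*, *Cyp51* with *Akap9*, *Pfkp* with *Pitrm1*, *Rarres2* with *Lrrc61*, *Adrb3* with *Gm45470* and *Xist* with *Tsix*. Of 20 proliferation genes 3 were higher and 2 lower, a share close to the 26.3% of all genes, and of 11 tested genes of smooth muscle type contraction 3 were higher and 1 lower. Of 10 imprinted genes tested, 1 was higher and 1 lower. *Xist*, which coats the inactive X, was present in both clones, at 264 to 334 CPM in clone 48 and 155 to 187 CPM in clone 66 (-0.81 ± 0.08, edgeR adjusted p = 1.52e-05, in the sums 0.0104).

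Genes of inflammation also split. Of 15 interferon-stimulated genes tested, 4 were higher and 4 lower. *Usp18*, which restrains interferon signalling, was lower (-1.71 ± 0.19, edgeR adjusted p = 3.39e-05, in the sums 0.00272), as was *Ifit1*, a sensor of foreign RNA (-1.35 ± 0.25, edgeR adjusted p = 0.00163, in the sums 0.00523). Of 11 chemokine and inflammation genes tested, 1 was higher and 3 lower. *Ptgs2*, the inducible cyclooxygenase, was the one that was higher, at 7.73 to 10.4 CPM against 19.5 to 40.9 CPM (1.55 ± 0.17, edgeR adjusted p = 3.32e-05, in the sums 0.00398).

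**Figure D2:**
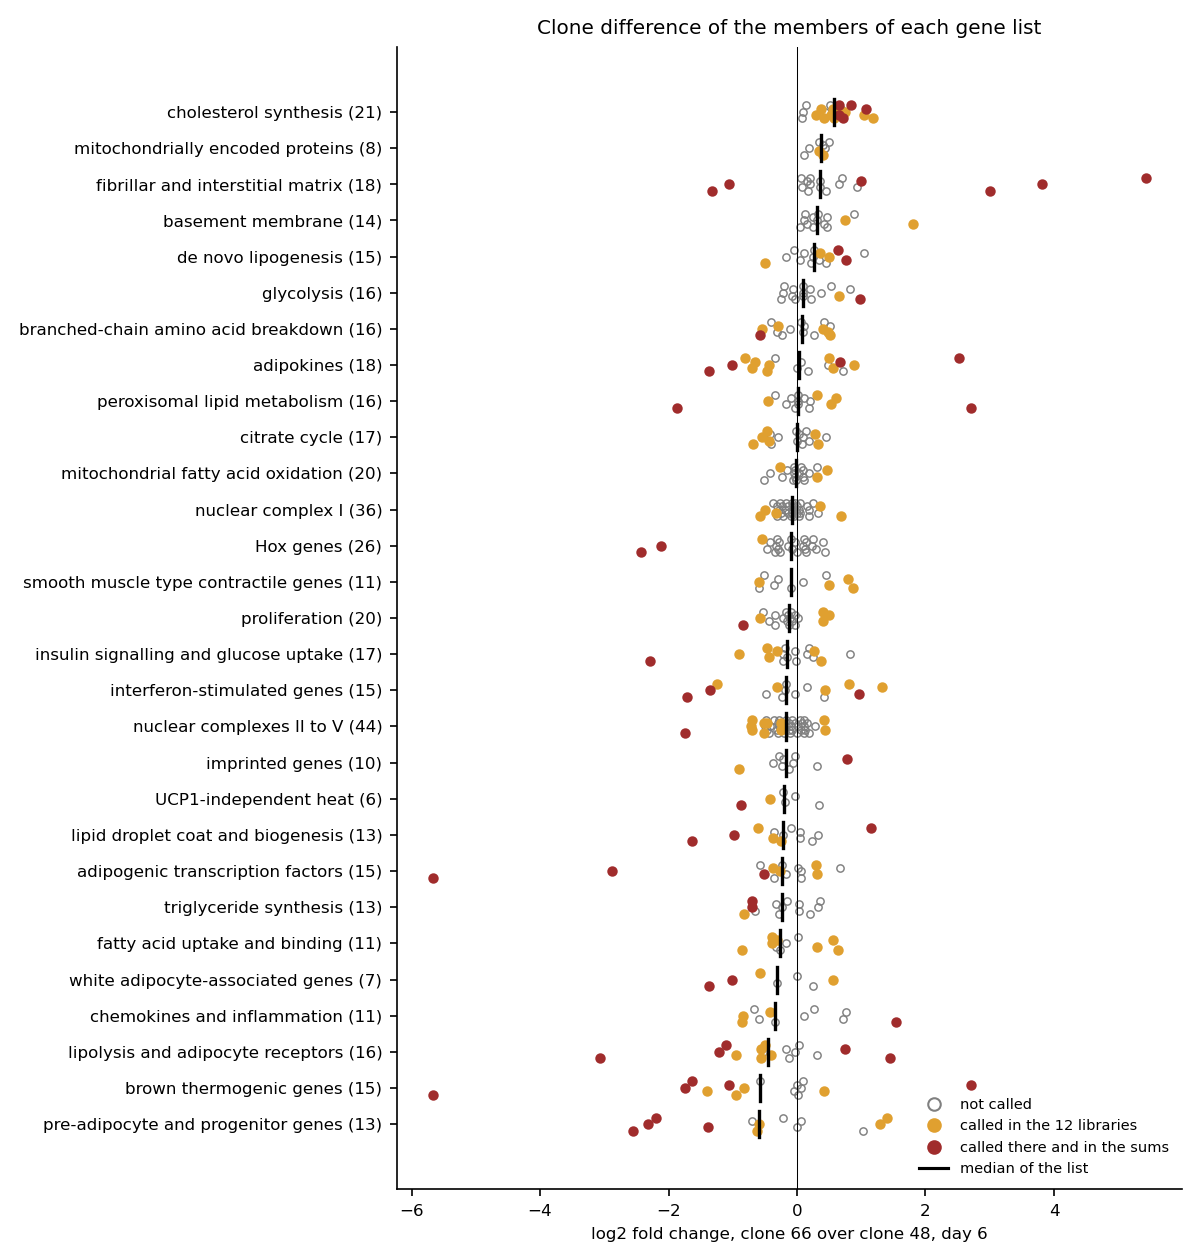
Log2 fold change of clone 66 over clone 48 at day 6 (x axis) for the tested members of each gene list, with the number tested in brackets. Each point is a gene, open grey if not called, orange if called in the 12 libraries and red if also called in the sums, and the black tick is the median of the list; the cholesterol synthesis list has the highest median (0.58), and the rightmost points of the fibrillar matrix list are *Lum* and *Dcn*, whose fitted values depend on the prior count.

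Among well expressed genes (average log2 CPM of at least 5) a pair differed by about as much as *Ebf2*. *Mmd2*, a membrane protein of the progestin and adiponectin receptor family, was at 63.6, 73.5 and 107 CPM in clone 48 and at 1.01, 1.66 and 2.77 CPM in clone 66 (-5.52 ± 0.23, edgeR adjusted p = 1.44e-08). *Alcam*, a cell adhesion molecule (chr16:52248996-52454074), was the reverse, at 0.722, 1.48 and 3.34 CPM against 69.7, 76.8 and 88.1 CPM, 45.6-fold higher in the fit (5.51 ± 0.26, edgeR adjusted p = 4.02e-08). Neither gene overlapped between the clones, and both passed in the sums (adjusted p = 1.64e-04 for *Mmd2* and 8.62e-05 for *Alcam*).

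The other genes lower in clone 66 by this ranking included secreted and matrix-binding proteins. *Thbs1*, thrombospondin 1, was at 91.5 to 178 CPM against 14.6 to 35.5 CPM (-2.26 ± 0.25, edgeR adjusted p = 3.11e-05, in the sums 0.00647). *Itga6*, the laminin-binding integrin α6, was at 268 to 476 CPM against 54.6 to 113 CPM (-2.08 ± 0.19, edgeR adjusted p = 8.92e-06, in the sums 0.00335). *Car3*, a carbonic anhydrase abundant in fat, was at 148 to 312 CPM against 37.8 to 59.1 CPM (-2.25 ± 0.21, edgeR adjusted p = 8.40e-06, in the sums 2.83e-04). *Egln3*, an oxygen-sensing prolyl hydroxylase (-1.94 ± 0.13), *Chrdl1*, an antagonist of bone morphogenetic proteins (-1.53 ± 0.10), *Anxa1*, a mediator that limits inflammation (-1.45 ± 0.21), and *Cgnl1*, a junction protein (-1.45 ± 0.20), were called in the 12 libraries and in the sums. *Egln3* lies on chromosome 12 and *Chrdl1* on X.

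Of the 10 genes of this kind that were higher in clone 66, 4 lie on chromosome 18. They are *Ppic*, a cyclophilin (5.10 ± 0.21), *Zeb1*, a repressor of epithelial genes (2.95 ± 0.10), *Svil*, which links actin to the membrane (2.80 ± 0.18), and *Colec12*, a scavenger receptor (1.96 ± 0.17), each well above the median of 0.71 of that chromosome. *Zeb1* was at 13.1 to 16.1 CPM in clone 48 and at 100 to 139 CPM in clone 66. *Marcks*, a substrate of protein kinase C on chromosome 10, was at 11.5 to 30.9 CPM against 97.5 to 150.1 CPM (2.77 ± 0.25, edgeR adjusted p = 6.68e-06, in the sums 0.00304). *Mme*, the peptidase neprilysin (2.01 ± 0.11), and *Ptgfr*, the receptor of prostaglandin F2α (1.81 ± 0.13), lie on chromosome 3. *Atp2a3*, a calcium pump, was at 6.27 to 31.1 CPM against 29.1 to 90.7 CPM with overlap, and the sums lost its call (1.91 ± 0.45, edgeR adjusted p = 0.00779, in the sums 0.0904).

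Some genes were all but silent in 1 clone. With at most 3 counts in every day 6 library of clone 48 and a mean of at least 1 CPM in clone 66 there were 16 genes, and 7 genes in the reverse direction. *Rhou*, a small GTPase (chr8:123653929-123663884), had 183 to 263 counts in clone 48 and 0 to 2 in clone 66, at least 82.2-fold lower there. *Nmnat3*, which makes NAD in mitochondria, and *Arxes1*, an adipocyte gene of the endoplasmic reticulum on X, were at least 20.1-fold and at least 18.4-fold lower. In the other direction *Glrb*, a glycine receptor subunit, had 0 to 1 count in clone 48 and 160 to 297 in clone 66, at least 64.6-fold higher. *Sema3a*, a guidance cue, was at least 57.9-fold higher, *Adgrl2*, an adhesion receptor, at least 45.4-fold, *Raet1d*, a ligand of natural killer cells, at least 41.1-fold, and *Pcdh18*, a protocadherin, at least 16.6-fold. These bounds use a floor of 3 counts per library, and *Raet1d* shares exons with *Raet1e*.

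The clones also differed before day 6. Of the 481 genes at least 2-fold higher in clone 66 at day 6, 475 had counts at day 0, and 238 of these (50.1%) were at least 2-fold higher there as well, against 3.18% of all genes. Of the 518 that were lower, 501 had counts at day 0 and 224 (44.7%) were at least 2-fold lower, against 3.02% of all genes. At day 2 the shares were 63.2% and 48.8%, against 4.89% and 3.96%. The days have separate libraries, but the same lines and the same pools.

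Between day 0 and day 6 the clone difference changed for 637 of 17589 genes (3.62%) when all 36 libraries were fitted together with edgeR. Several adipocyte genes started lower in clone 66 and then came closer to the level of clone 48. *Cidec*, which fuses lipid droplets, had a median of 4.22 CPM of the library total in clone 48 and 0.514 in clone 66 at day 0, and 615 and 554 at day 6. The clone difference changed by 2.92 ± 0.18 on the log2 scale (edgeR adjusted p = 1.15e-11). *Steap4*, a metalloreductase of adipocytes, had 3 to 10 counts at day 0 in clone 48 and 0 to 1 in clone 66, and 154 and 81.9 CPM at day 6 (2.90 ± 0.60, edgeR adjusted p = 0.00375). *Itga6* changed by 2.699 ± 0.33 (edgeR adjusted p = 3.05e-06), from a difference of -4.78 at day 0 to one that was smaller and still present at day 6. *Scara5*, a ferritin receptor of stromal cells, changed by 2.69 ± 0.35 (edgeR adjusted p = 6.59e-06) and reached 29.0 and 27.1 CPM at day 6. *Hsd11b1*, which regenerates active glucocorticoid, crossed over, from 1.64 against 0.469 CPM at day 0 to 87.4 against 137 CPM at day 6 (3.06 ± 0.44, edgeR adjusted p = 3.13e-05).

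Other genes moved the opposite way. *Igf1*, the insulin-like growth factor, was at 3.12 CPM in clone 48 and 20.6 CPM in clone 66 at day 0, and at 137 and 86.5 CPM at day 6 (change of -3.44 ± 0.33, edgeR adjusted p = 6.53e-08). *Thbs1* had a log2 difference of 0.00 ± 0.19 at day 0 (medians of 932 and 857 CPM), with medians of 6.71 and 5.76 CPM at day 2 and 127 and 29.9 CPM at day 6 (change of -2.24 ± 0.50, edgeR adjusted p = 0.00617). *Sfrp2* was at 699 and 616 CPM at day 0 and at 12.6 and 3.02 CPM at day 6 (-1.83 ± 0.44, edgeR adjusted p = 0.0129). The difference of *Zeb1* was 4.96 at day 0 and smaller at day 6 (change of -1.98 ± 0.22, edgeR adjusted p = 9.82e-07). *Ankef1* had 0 counts in all 6 day 0 libraries of clone 48, 68 to 109 counts in those of clone 66, and overlapping levels at day 6 (edgeR adjusted p = 0.199 at day 6). Its fitted change of -9.42 depends on the prior count.

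*Adipoq* and *Cfd* were lower in clone 66 at the intermediate day as well. At day 2 *Adipoq* had a median of 909 CPM of the library total in clone 48 and 110 CPM in clone 66, and *Cfd* 40.9 and 4.62 CPM, with no overlap of the libraries. At day 6 the medians of *Adipoq* were 3165 and 1744 CPM. *Plin1* was at 255 and 293 CPM at day 2, with overlap.

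**Figure D3:**
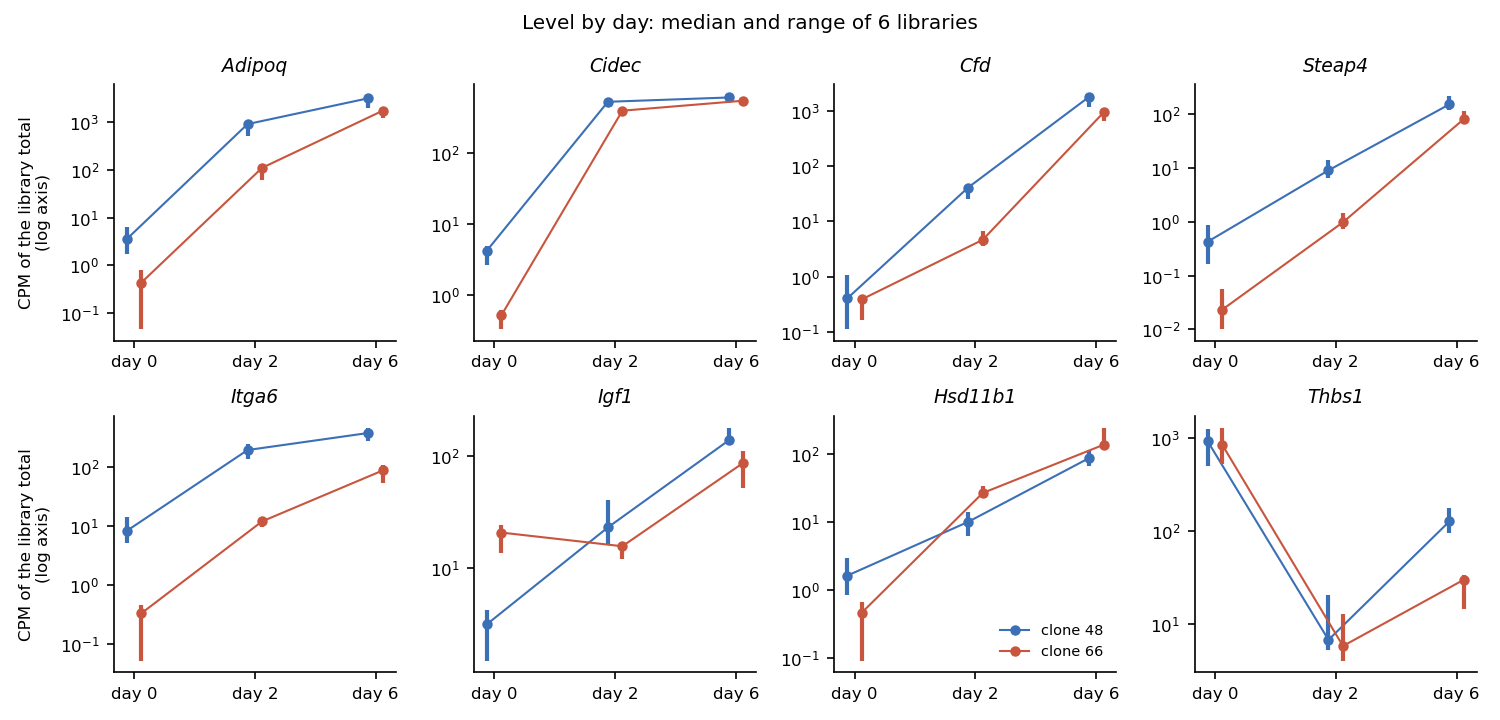
Level of 8 genes at days 0, 2 and 6 in CPM of the library total, on log axes that differ between panels. Points are the median and bars the range of the 6 libraries of clone 48 (blue) and clone 66 (red), and a level of 0 is drawn at 0.01; *Adipoq*, *Cidec*, *Steap4* and *Itga6* were lower in clone 66 at days 0 and 2 and closer at day 6, while *Igf1* and *Hsd11b1* crossed over.

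The difference between the clones also followed the chromosomes. On chromosome 18 the median log2 difference of 426 tested genes was 0.71, the middle 50% of genes lay between 0.45 and 0.96, and 289 genes were higher and 4 lower. That is 68.8% of its genes, and the sums called 163 higher and 1 lower. On chromosome 12 the median of 560 genes was -0.39, with 24 higher and 245 lower, and on X the median of 437 genes was -0.39, with 21 higher and 197 lower. Each of these chromosomes was divided into 5 stretches in gene order, and their medians lay between 0.66 and 0.75 on chromosome 18, between -0.44 and -0.35 on chromosome 12 and between -0.40 and -0.36 on X. No stretch of these chromosomes had a median near 0. Against the mean of clone 48, single libraries of clone 66 had a median of 0.65 to 0.86 on chromosome 18, and libraries of clone 48 lay between -0.08 and 0.03.

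The shift was present on every day sampled. The median of chromosome 18 was 0.77 at day 0 and 0.71 at day 2. Smaller medians were found on chromosomes 3 (0.26), 11 (0.20) and 9 (-0.26). Genes of chromosomes 12, 18 and X were 9.06% of the genes tested and 18.9% of those called, and 23.4% of the genes of the other chromosomes were called. No test was made across chromosomes, since genes are not replicates, and the source of the shift was not tested.

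**Figure D4:**
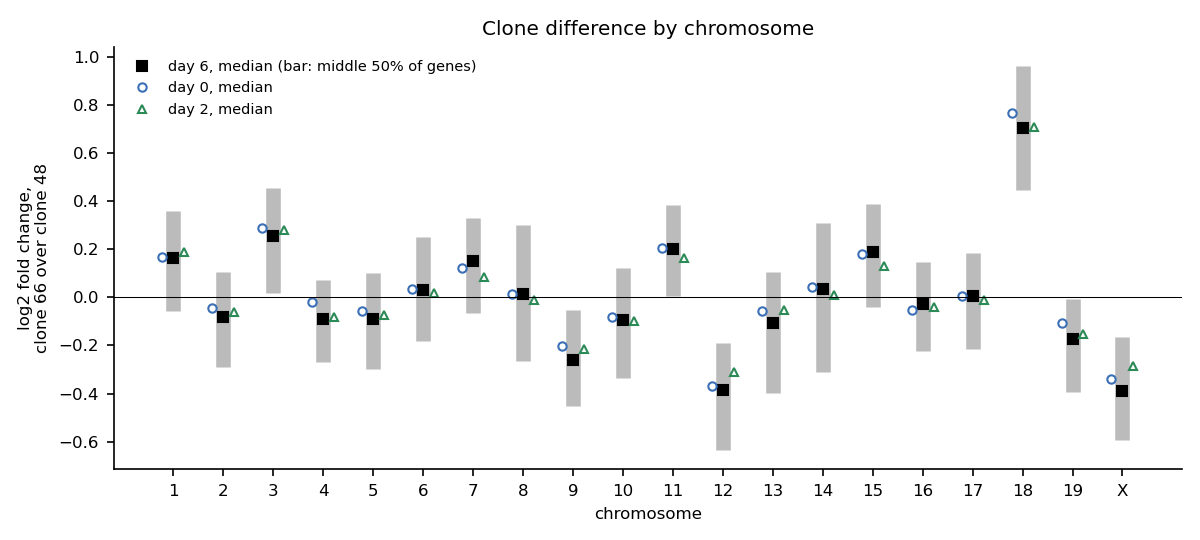
Median log2 fold change of clone 66 over clone 48 for the tested genes of each chromosome (x axis), at day 6 (black squares, grey bars for the middle 50% of genes), day 0 (blue circles) and day 2 (green triangles). Chromosome 18 lies at 0.71 and chromosomes 12 and X at -0.39 at day 6, with similar medians on the earlier days.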

How the data were processed

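RNA sequencing counts of 36 libraries were used, 12 of them from day 6. According to the study's methods, the authors aligned reads to the mouse genome GRCm38 with STAR (version 2.7.0d in the submitters' processing notes) and counted them per GENCODE M21 gene with featureCounts (1.6.2). The deposited values are raw counts per gene without strand or normalization.

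Libraries were grouped by the clone, genotype and day in the labels. Genes were filtered with filterByExpr, scaled by TMM and fitted with edgeR 4.0.16 (glmQLFit, glmQLFTest) in R 4.3.3, with clone and genotype as terms and p-values adjusted by Benjamini-Hochberg over all genes tested, at 0.05. CPM minima, floors and bounds cover counting error only. Fold changes are log2, clone 66 over clone 48, ± SE. The change from day 0 to day 6 and the interaction with genotype came from models with those terms. Deviations from the group mean were correlated over 9515 genes: same-numbered *Rxra*WT and *Rxra*SA libraries of a clone were paired (6 of 6 pairs over 0.1), while across the clones 5 of 6 were. The fits were tested on simulated data. Tables were made with Python 3.11.15 and plots with matplotlib 3.10.9.

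Members and gene lists were chosen with earlier results of these data known. Named genes were *Rxra*, a fixed set of adipocyte genes, and for each list the called members with the largest differences (up to 5) and the most abundant member. Added were the 10 largest differences per direction at a mean log2 CPM of 5 or more, genes with at most 3 counts in every library of 1 clone, and the 5 largest changes per direction between day 0 and day 6. The text gives a selection of these, and some are not reported here. The promoter motifs and the promoters shown were chosen after the values were seen, as were the genes in the plot by day. Alternatives were library sums, a replicate block, voom with limma 3.58.1, DESeq2 1.42.0, other scalings and filters, each genotype alone, libraries left out, and the ribosomal RNA share as a covariate, the last chosen after seeing the data.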

Additional observations from a re-analysis of the deposited data

Results flagged for a closer look

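In 4 of 216 combinations of a gene and a clone, 1 of the 6 day 6 libraries stood apart, as its gap to the nearest other library was a larger share of the whole range than Dixon's 95% critical value. Chance gives about 1 in 20. The lowest *Adrb1* level in clone 66 (*Rxra*WT replicate 3) was 0.162 CPM against a median of 0.387 CPM, a gap of 0.681 of the range. The lowest *Elovl3* level in clone 66 (*Rxra*SA replicate 3) was 0.0438 CPM against 0.292 CPM, a gap of 0.637. The highest *Plin2* level in clone 48 (*Rxra*SA replicate 1) was 542 CPM against 397 CPM, a gap of 0.641. *Arxes1* had 1 count in 1 library of clone 66 (*Rxra*SA replicate 2) and 0 in the others, a gap of 1.0.

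The difference between the clones changed from day 0 to day 6 by a test of the change itself (edgeR) for 10 named genes. On the log2 scale the change was 3.058 for *Hsd11b1*, 2.922 for *Cidec*, 2.895 for *Steap4*, 2.699 for *Itga6* and 2.692 for *Scara5*. It was -9.42 for *Ankef1*, -3.44 for *Igf1*, -2.243 for *Thbs1*, -1.984 for *Zeb1* and -1.828 for *Sfrp2*.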

How the results depend on the processing

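The number of genes called depended on how paired libraries and the ribosomal RNA share were treated, and less on scaling. Same-numbered libraries of different clones shared only a number in the labels, and their correlations were over 0.1 in 5 of 6 pairs (mean 0.595, lowest -0.017). A replicate block on that number gave 7689 genes (3927 higher, 3762 lower) and, of the named genes, lost 0 of the 160 called and gained 16. With the replicate number within each clone as the replicate block, 1363 genes passed for the change from day 0 to day 6 and 61 for the interaction with genotype. The ribosomal RNA share as a covariate, added after seeing the data, gave 7580 (3732 and 3848) and turned *Col4a1* to -0.17 and *Col6a1* to -0.27, from 0.15 and 0.06, neither of which was called without it. It lost 0 named genes and gained 17. Library sums gave 1282 (687 and 595) and lost 82 named genes, with 3 samples a clone instead of 6. Voom with duplicateCorrelation gave 1805 (967 and 838), with 333 at least 2-fold lower. *Rxra*WT libraries alone gave 1029 (634 and 395), with 288 at least 2-fold lower, and *Rxra*SA libraries alone 839 (438 and 401), with 279 at least 2-fold higher and 288 lower. A minimum of 1 CPM in 6 libraries left 330 at least 2-fold lower. DESeq2 called 1 gene for the interaction. The cause of these differences was not tested beyond the smaller number of samples or genes. 

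Scaling by library size alone gave 4005 genes, 1598 higher and 2407 lower, and moved the median of all genes from 0.00 to -0.06. Without the 6 libraries of over 2% ribosomal RNA 4046 genes were called, and 29 named genes were lost and 7 gained. Leaving out single libraries or same-numbered pairs gave 2565 to 4994 genes (1262 to 2577 higher, 1229 to 2417 lower), 437 to 700 at least 2-fold higher and 468 to 613 lower. Leaving out single libraries only, 513 to 678 genes passed for the change from day 0 to day 6, and 0 for the interaction. The counts fell by more than 1.5 times without replicate 2 of clone 48 (2565, with 1262 higher and 1303 lower), without replicate 1 of clone 48 (1385 lower) and without replicate 2 of clone 66 (1229 lower). Genes with under about 10 counts, such as *Ucp1*, could not be compared at this depth.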
